A study of Homo sapiens with 24 samples.

Results

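The plasminogen activation system was followed through 6 genes, matched by Ensembl gene identifier: the activators PLAU and PLAT, the urokinase receptor PLAUR, the inhibitors SERPINE2 and SERPINB2, and thrombomodulin, THBD. They were chosen by name and function, and all 6 were present among the 57356 genes shared by the 3 count tables. RNA sequencing compared human neuroblastoma lines after knockdown of FAM167A, the gene also called DIORA1, in 3 experiments. In SK-N-SH, 5 libraries from cells given a pool of siRNA against DIORA1 were set against 5 from cells given NTC siRNA. CRISPRi libraries from SK-N-SH came from cells with sgDIORA1 (3 libraries) or the control guide sgGal4 (3 libraries), and those from SK-N-AS from the same 2 kinds of guide (4 libraries each). CRISPRi silences a promoter with a Cas9 protein fused to the KRAB repressor, here SpCas9-KRAB, so both arms of each CRISPRi experiment are guide-bearing cells. Both lines are established neuroblastoma lines that grow in culture without stroma or vessels. How many guides or clones stood behind each CRISPRi arm is unknown here. Nothing in the labels says that replicates came from separate cultures, so p-values measure only the spread between these libraries.

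Plasminogen is a circulating proenzyme that is cut to the protease plasmin at cell surfaces and on fibrin. Urokinase, the product of PLAU, does so mainly when bound to its surface receptor uPAR, the product of PLAUR, and tissue plasminogen activator, the product of PLAT, mainly on fibrin and, in the nervous system, around growing neurites and synapses. Serpins trap the activators in inactive complexes, and plasmin in turn degrades fibrin and matrix proteins and activates other proteases. Thrombomodulin redirects thrombin away from clotting, towards activation of protein C and of an inhibitor of fibrinolysis. The system is best known in tumour cells for its part in migration and invasion.

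The knockdown itself was checked first. FAM167A stood at 34.7% of its control level with siRNA, at 1.33% with CRISPRi in SK-N-SH and at 10.7% with CRISPRi in SK-N-AS, with no overlap between groups in any experiment. Libraries held 71464698 to 90255175 reads assigned to genes in the siRNA experiment, 11690515 to 21628076 in SK-N-SH CRISPRi and 29985858 to 104455853 in SK-N-AS CRISPRi. A change was called where edgeR's quasi-likelihood test gave a Benjamini-Hochberg adjusted p under 0.05, with adjustment over all genes tested. Levels are CPM, a gene's reads scaled to a common library size with TMM factors. Knockdown replicate 4 and control replicate 5 of the siRNA experiment stood apart from the others in an earlier analysis of these data, and the same number of members, 3, was called with and without both.

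In the siRNA experiment 3 of the 6 genes changed, all 3 downward and all 3 with no overlap between groups: PLAU, PLAUR and PLAT. Over all genes tested there, 9.53% were called, 6.98% lower and 2.55% higher in knockdown, and 8.74% had groups that did not overlap. In SK-N-SH CRISPRi 4 of the 5 genes that could be tested changed, all 4 upward and all 4 without overlap: PLAU, PLAT, PLAUR and SERPINB2. The background was far higher there, with 55.8% of genes called, 27.7% higher and 28.0% lower, and 60.7% without overlap, so a call or a separation of groups was common to most genes of that experiment. In SK-N-AS CRISPRi all 6 changed, 5 upward without overlap and PLAT downward with overlap, where 30.6% of all genes were called, 15.2% higher and 15.5% lower, and 29.1% did not overlap. PLAU and PLAUR were lower with siRNA and higher in both CRISPRi experiments, a combination of calls found in 3.22% of the 13943 genes tested in all 3.

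**Figure D1:**
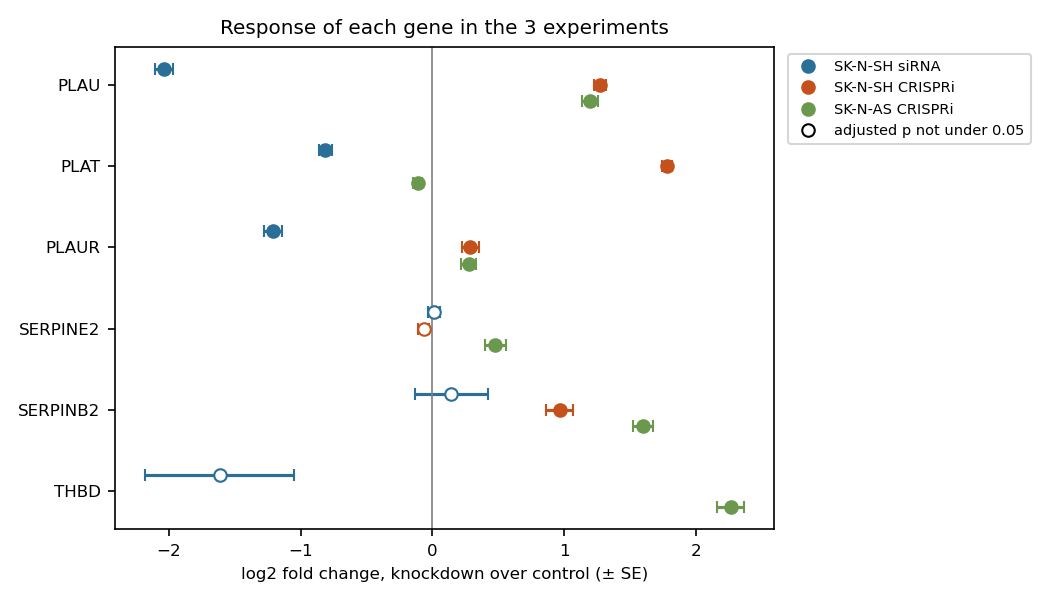
Log2 fold change of each gene, knockdown over its own control, with its standard error, for the 3 experiments (colours); open points did not pass an adjusted p of 0.05, and THBD has no point for SK-N-SH CRISPRi, where it was not tested. PLAU runs from -2.04 with siRNA to 1.27 with CRISPRi in SK-N-SH, and PLAT lies on opposite sides of 0 in the 2 SK-N-SH experiments.

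PLAU, PLAUR and SERPINB2 rose together in both CRISPRi experiments. For each, a stretch before a RefSeq start site that held a searched motif is shown as a description. All 3 stretches lie inside the annotated span of their gene, and those of PLAU and PLAUR inside annotated exons. RefSeq promoter windows (GRCh38.p14), the 250 bases before a start site, were searched for 4 of the 6 genes (PLAU, PLAUR, SERPINE2 and SERPINB2). PLAT was left out of the search, and no window was found for THBD. Capitals mark the matched bases, and each sequence reads 5′ to 3′ on the strand of its gene.
SERPINB2, chr18:63887455-63887699, plus strand: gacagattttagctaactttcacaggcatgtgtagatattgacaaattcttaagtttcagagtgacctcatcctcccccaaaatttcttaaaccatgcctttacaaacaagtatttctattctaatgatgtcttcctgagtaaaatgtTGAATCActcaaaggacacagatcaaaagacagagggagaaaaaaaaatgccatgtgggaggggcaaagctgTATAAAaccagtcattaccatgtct
PLAUR, chr19:43670338-43670367, minus strand: atcacaactccaTGAGTCAgggccgagcca
PLAU, chr10:73911074-73911103, plus strand: gagggagGGGCGGcgccgGGGCGGgccctg
The search covered both strands, and no match reported here overlaps another. SERPINB2 and PLAUR each held the AP-1 motif, spelled TGANTCA and the same on both strands, at -102 to -96 and at -186 to -180 from the start site, and 6.57% of all 35116 windows of this length held it. SERPINB2 also held the core promoter motif TATAAA, found in 10.7% of windows, at -30 to -25. The PLAU window next to start 73911132 held the GC box, spelled GGGCGG and found in 42.6% of windows, 3 times, of which the copies starting at -51 and -40 are shown. SERPINE2 held GC boxes as well. The TEAD motif, spelled GGAATG and found in 11.9% of windows, and NF-kB, found in 5.21%, had no match in the windows of these 4 genes.

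PLAU encodes urokinase, the secreted serine protease that starts plasminogen activation at the cell surface, and lies at chr10:73909177-73917497 on the plus strand of GRCh38. In the siRNA experiment its CPM was 299.6, 268, 288, 322 and 256 in the control libraries and 60.6, 72.3, 76.1, 72.8 and 67.9 in the knockdown libraries. The knockdown libraries all lay far below the controls. PLAU fell by 2.04 ± 0.0675 on the log2 scale (SE; adjusted p = 2.61e-12 by edgeR's quasi-likelihood test), a 4.1-fold decrease. PLAU ranked 14 from the lowest fold change among 21018 genes tested.

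In SK-N-SH CRISPRi the control libraries had 127, 113 and 123 CPM of PLAU and the knockdown libraries 292, 301 and 284. All 3 knockdown libraries were higher than all 3 controls, the reverse of the siRNA result in the line of the same name. The rise was 1.27 ± 0.0436 on the log2 scale, or 2.42-fold (adjusted p = 1.15e-24). SK-N-AS expressed far less PLAU, 8.91, 9.93, 9.40 and 8.09 CPM in controls, and 21.7, 19.3, 20.7 and 21.2 CPM in knockdown libraries. There too the groups were apart, with a rise of 1.20 ± 0.0637, or 2.29-fold (adjusted p = 4.27e-17). In bulk RNA, fewer cells with a transcript and less of it per cell cannot be told apart, here or for the genes below.

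PLAT encodes tissue plasminogen activator, the secreted protease that neural cells also use, and lies on chromosome 8. With siRNA its CPM was 423, 433, 435, 439.9 and 400.5 in controls and 223, 263, 230.3, 232 and 265 in knockdown libraries. No library crossed between groups, and PLAT fell by 0.81 ± 0.05 on the log2 scale, or 1.76-fold (adjusted p = 7.15e-11). In SK-N-SH CRISPRi the levels were 194, 184 and 199 CPM in controls and 656, 666 and 664 CPM in knockdown libraries. This was the largest change of a member in that experiment, 1.78 ± 0.0399 on the log2 scale or 3.44-fold (adjusted p = 4.04e-30), and PLAT ranked 84 from the highest of 15391 genes.

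SK-N-AS gave another picture for PLAT. Its control libraries had 79.0, 78.1, 74.8 and 77.1 CPM and its knockdown libraries 74.9, 68.7, 70.4 and 72.2 CPM. Knockdown library 1 lay just above control library 3, and the other 3 knockdown libraries lay below all controls. The fall was 0.11 on the log2 scale, -0.11 ± 0.0344 (adjusted p = 0.0131), the smallest called change of any member. Without knockdown replicate 2 it no longer passed (-0.08, adjusted p = 0.0904; 0.00563 to 0.0904 over the alternatives tried).

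PLAUR encodes uPAR, the GPI-anchored receptor that holds urokinase at the membrane, and lies at chr19:43646095-43670547 on the minus strand. Its CPM in the siRNA experiment was 60.0, 50.9, 59.8, 61.6 and 51.6 in controls against 21.6, 24.5, 25.1, 27.8 and 23.5 in knockdown libraries. The groups were well apart, and PLAUR fell by 1.21 ± 0.0668 on the log2 scale, or 2.32-fold (adjusted p = 1.07e-10). In both CRISPRi experiments it rose, but by much less than PLAU.

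In SK-N-SH CRISPRi PLAUR had 33.6, 31.1 and 32.9 CPM in controls and 40.0, 39.7 and 39.7 CPM in knockdown libraries. The 3 knockdown libraries differed by less than 1 CPM among themselves and all exceeded the controls, a rise of 0.29 ± 0.0624 on the log2 scale or 1.22-fold (adjusted p = 0.000148). Scaled by library totals alone, without TMM, the rise was 0.16 (adjusted p = 0.0273; 1.9e-05 to 0.0273 over the alternatives tried). In SK-N-AS its CPM was 20.2, 18.1, 17.6 and 17.8 in controls and 22.4, 22.0, 23.1 and 21.8 in knockdown libraries, a rise of 0.28 ± 0.0535 or 1.21-fold (adjusted p = 0.000106). Control library 1 was the highest control but still below each knockdown library.

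**Figure D2:**
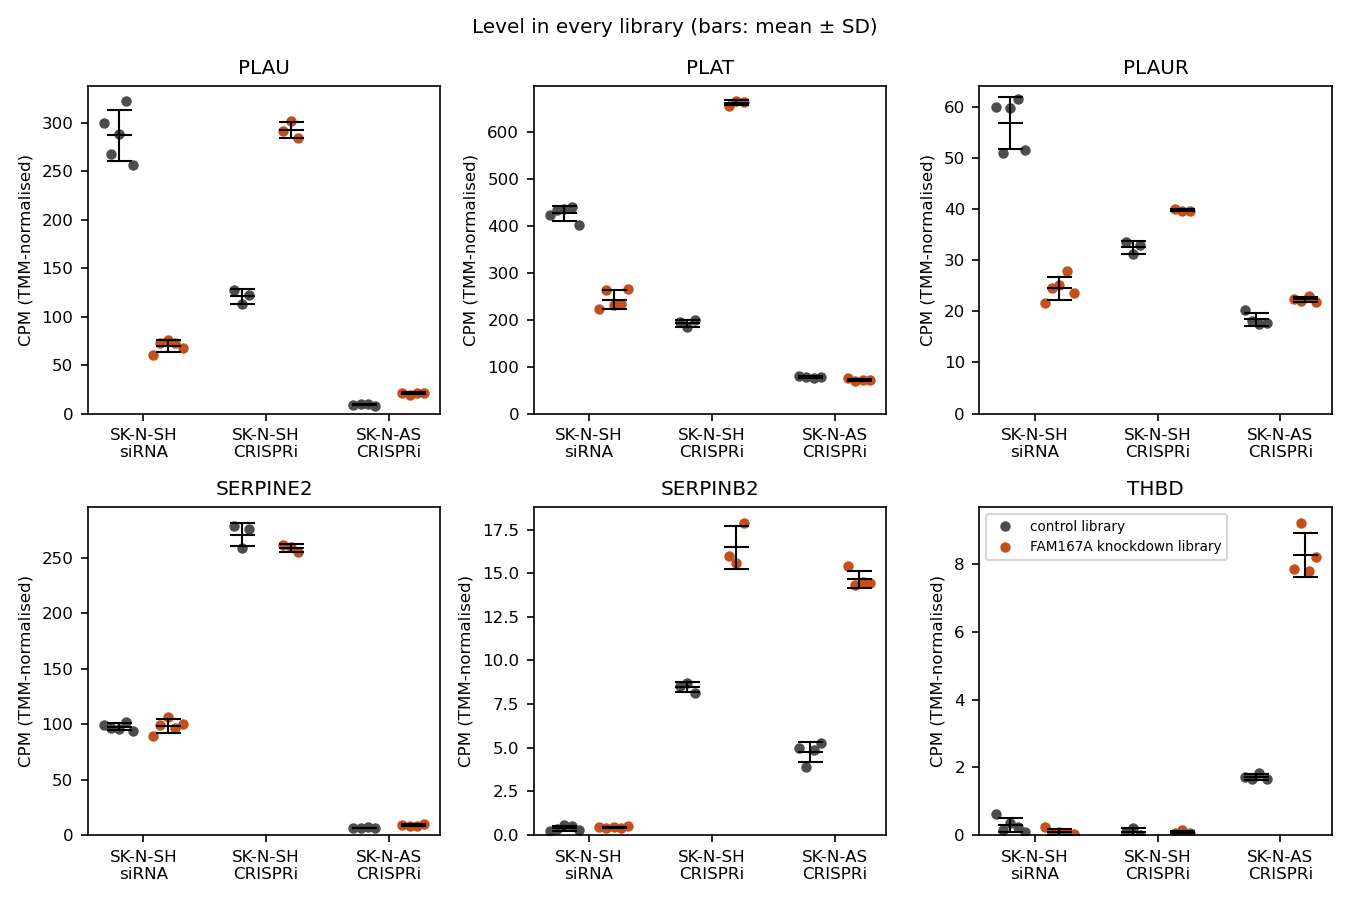
CPM of the 6 genes in each of the 24 libraries (points; grey control, orange FAM167A knockdown), with bars for the mean ± SD of 5, 3 or 4 libraries and a separate axis from 0 for each gene. PLAU falls from a mean of 287 to 70.0 CPM with siRNA and rises from 121 to 292 CPM with CRISPRi in SK-N-SH, and THBD is above 1 CPM only in SK-N-AS.

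The direct comparison of the responses in SK-N-SH, each against its own controls, was made as an interaction, CRISPRi minus siRNA. The difference passed for 4 of the 6 genes, where 31.4% of all genes passed. It was 3.30 ± 0.1 on the log2 scale for PLAU (adjusted p = 2.48e-18), the largest among the 4, 2.59 ± 0.0756 for PLAT (2.37e-23) and 1.49 ± 0.105 for PLAUR (2.09e-13). For the activators and the receptor this difference is between a fall and a rise, not between sizes of one response. SERPINB2 differed by 0.81 ± 0.263 (adjusted p = 0.0161), and this call was lost without siRNA control replicate 3 (0.67, adjusted p = 0.0505) and with scaling by library totals (0.64, adjusted p = 0.0553; 0.00147 to 0.0553 over the alternatives). The 2 SK-N-SH experiments also differ in library kit and in depth, and in how far FAM167A fell, so the knockdown method cannot be told apart from these.

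Between the lines, SK-N-SH minus SK-N-AS with CRISPRi in both, 3 of the 6 differences passed, where 30.7% of all genes did. PLAT differed by 1.91 ± 0.0497 on the log2 scale (adjusted p = 1.56e-32), having risen in SK-N-SH and fallen slightly in SK-N-AS. SERPINB2 (-0.61 ± 0.132, adjusted p = 0.000218) and SERPINE2 (-0.52 ± 0.0734, adjusted p = 1.09e-07) had the higher response in SK-N-AS. For PLAU the difference was 0.09 ± 0.0702 (adjusted p = 0.37) and for PLAUR 0.03 ± 0.0847 (adjusted p = 0.889), so neither passed, and with scaling by library totals both changed sign, to -0.05 and -0.11. The CRISPRi experiments of the lines also differ in depth and in how far FAM167A fell, so the line cannot be told apart from these. The siRNA and SK-N-AS experiments differ in line and method together and were not compared directly.

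SERPINE2 encodes protease nexin 1, a secreted serpin that inhibits thrombin, urokinase and plasmin and is abundant in neural tissue, at chr2:223975112-224039319 on the minus strand. With siRNA it had 99.4, 96.6, 95.9, 102 and 94.0 CPM in controls and 89.6, 99.7, 106, 96.8 and 100.2 CPM in knockdown libraries, so the groups lay within each other. The fold change was 0.01 ± 0.0435 on the log2 scale (adjusted p = 0.9). In SK-N-SH CRISPRi controls had 278, 259 and 276 CPM and knockdown libraries 262, 259.6 and 255 CPM, with a fold change of -0.07 ± 0.0396 (adjusted p = 0.157). That value passed with scaling by library totals (-0.19, adjusted p = 4.47e-05) and without control replicate 2 (-0.10, adjusted p = 0.0132), the control library that lay among the knockdown libraries; adjusted p ran from 4.47e-05 to 0.479 over the alternatives.

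In SK-N-AS the CPM of SERPINE2 was low, 6.24, 6.33, 6.91 and 6.01 in controls and 9.15, 8.19, 8.28 and 10.1 in knockdown libraries. All 4 knockdown libraries exceeded all controls, with a rise of 0.48 ± 0.0809 on the log2 scale or 1.39-fold (adjusted p = 1.34e-05).

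SERPINB2, whose printed stretch is the longest of the 3, encodes plasminogen activator inhibitor 2, a largely intracellular serpin. It is best known from monocytes, keratinocytes and placenta, and lies at chr18:63871692-63903890 on the plus strand. In the siRNA experiment it was barely expressed, with 17, 27, 46, 38 and 22 reads in control libraries and 41, 30, 34, 30 and 44 reads in knockdown libraries. The groups overlapped fully and the log2 fold change was 0.14 ± 0.279 (adjusted p = 0.82). In SK-N-SH CRISPRi its CPM was 8.52, 8.71 and 8.16 in controls and 16.0, 15.6 and 17.9 in knockdown libraries. All knockdown libraries were higher, a rise of 0.97 ± 0.101 on the log2 scale or 1.96-fold (adjusted p = 1.83e-10).

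SERPINB2 rose further in SK-N-AS. Controls had 4.99, 3.90, 4.88 and 5.27 CPM and knockdown libraries 15.4, 14.3, 14.5 and 14.4 CPM, a rise of 1.60 ± 0.0758 on the log2 scale or 3.02-fold (adjusted p = 1.82e-18). Knockdown library 1 stood above the other 3, which lay close together. SERPINB2 ranked 113 from the highest of the 19277 genes tested.

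THBD, a gene of 1 exon at chr20:23045633-23049741 on the minus strand, encodes thrombomodulin, the thrombin receptor best known from endothelium. Its reads in the siRNA experiment were few, 45, 12, 29, 18 and 6 in control libraries and 22, 4, 7, 4 and 2 in knockdown libraries, and the groups overlapped. The log2 fold change of -1.62 ± 0.566 did not pass (adjusted p = 0.0835). It passed without knockdown replicate 1, the highest knockdown library (-2.39, adjusted p = 0.0104), without control replicate 5, the lowest control (-1.85, adjusted p = 0.0249), with no filter on low counts (-1.62, adjusted p = 0.0133) and with a replicate block (-1.72, adjusted p = 0.0181); adjusted p ran from 0.0104 to 0.281 over the alternatives. In SK-N-SH CRISPRi the reads were 1, 3 and 0 in controls and 1, 2 and 1 in knockdown libraries, too few to pass the filter, so a change was not detectable at this depth.

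THBD had the largest rise of the 6 genes in SK-N-AS. Its CPM was 1.71, 1.67, 1.83 and 1.66 in controls and 7.86, 9.22, 7.80 and 8.22 in knockdown libraries. The groups were far apart, the rise was 2.27 ± 0.1 on the log2 scale or 4.81-fold (adjusted p = 2.78e-19), and THBD ranked 29 from the highest of 19277 genes. The difference in response between the CRISPRi experiments did not pass (-2.13 ± 1.09, adjusted p = 0.143) and rests on the few SK-N-SH reads: without SK-N-SH control replicate 3, the library with 0 reads, it passed (-2.97, adjusted p = 0.0339; 0.0339 to 0.873 over the libraries left out in turn). The summed CPM of 6 endothelial markers (PECAM1, VWF, CDH5, TEK, KDR, ERG) in SK-N-AS was 2.04 to 2.53 in controls and 2.54 to 3.26 in knockdown libraries. None of the 4 of them that were tested there was called, and CDH5 had 6 reads over all controls and 8 over all knockdown libraries. With siRNA, where THBD did not pass, PECAM1 fell by 1.74 ± 0.303 (adjusted p = 0.000342), with 257 control and 84 knockdown reads. VWF (0.39 ± 0.391) and TEK (-0.88 ± 0.472) were not called there. In SK-N-SH CRISPRi VWF fell by 1.00 ± 0.375 (adjusted p = 0.0245), with 73 control and 34 knockdown reads and overlapping groups. TEK was not called in that experiment (0.49 ± 0.322). The part of these markers in the THBD values was not tested.

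Compared per length, as CPM per kilobase of gene length, the members kept different orders in the control libraries of the 3 experiments. In siRNA controls the order was PLAU 97.2, PLAT 64.4, PLAUR 12.7, SERPINE2 11.0, SERPINB2 0.144 and THBD 0.0712, and PLAUR and SERPINE2 overlapped, as did SERPINB2 and THBD. SK-N-SH CRISPRi controls had PLAU at 41.0, SERPINE2 at 30.5, PLAT at 29.1, PLAUR at 7.31, SERPINB2 at 3.08 and THBD at 0.0228, and SERPINE2 and PLAT overlapped. SK-N-AS controls put PLAT first at 11.7, followed by PLAUR at 4.13, PLAU at 3.08, SERPINB2 at 1.73, SERPINE2 at 0.717 and THBD at 0.417. These orders hold for controls and for the lengths used, whose origin is unknown here. SERPINB2 had a mean of 0.396 CPM in siRNA controls and 8.46 CPM in CRISPRi controls of SK-N-SH, values set side by side without a test because the experiments differ in kit and treatment.

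The balance of the activators shifted in each experiment, measured as the share of PLAU in the length-scaled sum of PLAU and PLAT. It went from 60.1% ± 1.66 (SD, n = 5) in controls to 39.3% ± 2.55 with siRNA, since PLAU fell further than PLAT. In SK-N-SH CRISPRi it went from 58.5% ± 0.872 (n = 3) to 49.8% ± 0.71, since PLAT rose further than PLAU. In SK-N-AS it went the other way, from 20.9% ± 1.49 (n = 4) to 39.4% ± 0.472, as PLAU rose and PLAT did not. No library crossed between groups in any of these shares, and they are given as descriptions, with no test of their own. The length-scaled ratio of PLAU to its receptor PLAUR moved from 7.64 to 4.32 with siRNA. It moved from 5.61 to 11.1 with CRISPRi in SK-N-SH, and in SK-N-AS from 0.748 to 1.40.

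**Figure D3:**
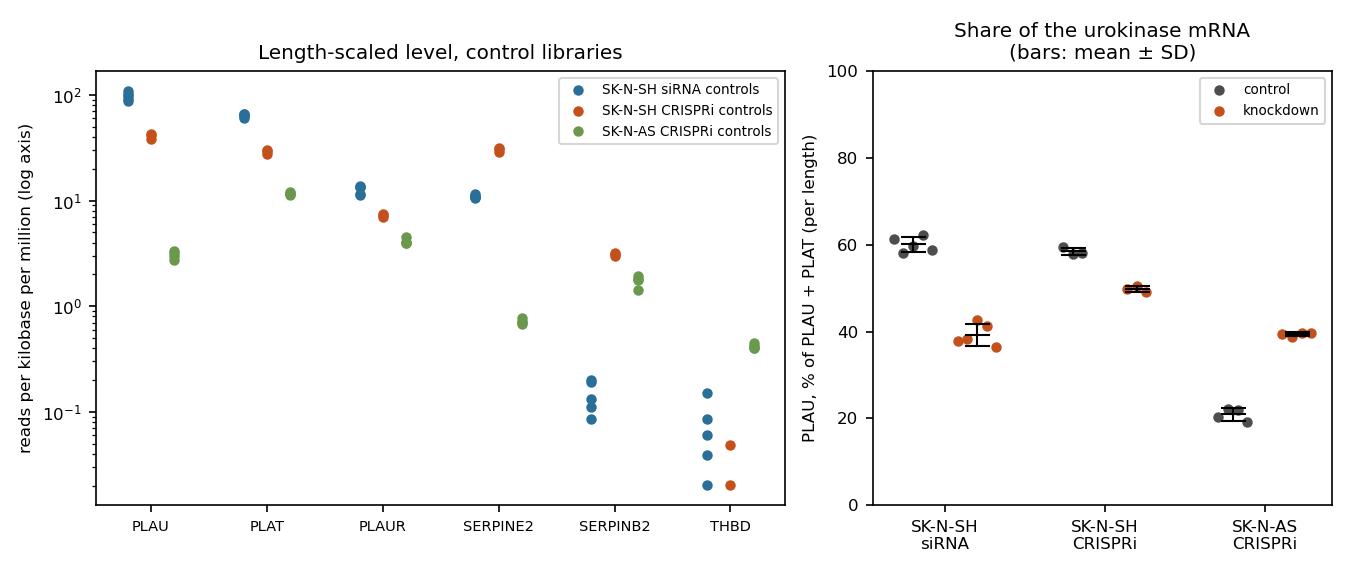
Left, length-scaled level of each gene in the control libraries on a log axis, in CPM per kilobase, where the 1 control library with 0 THBD reads has no point; right, PLAU as a percentage of PLAU plus PLAT in each library, with mean ± SD. The share falls from 60.1% to 39.3% with siRNA and rises from 20.9% to 39.4% in SK-N-AS.

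The annotation places other genes on top of some members. C10orf55 overlaps PLAU on the opposite strand, with 84 control and 46 knockdown reads in the siRNA experiment against 135567 reads of PLAU over all 10 libraries. SERPINB10 overlaps SERPINB2 on the same strand and had 16 control and 31 knockdown reads in SK-N-SH CRISPRi against 1175 of SERPINB2. Whether the counting used strand is unknown here, and in both cases the overlapping gene carried few reads.

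Among genes within 250 kb and tested with siRNA, 1 rose and 1 fell of 22 beside PLAU, 0 rose and 1 fell of 20 beside PLAUR, and 0 rose and 1 fell of 7 beside PLAT, where 2.55% of all genes rose and 6.98% fell. In SK-N-SH CRISPRi 4 rose and 2 fell of 17 neighbours of PLAU, 4 rose and 4 fell of 16 of PLAUR, and 3 rose and 1 fell of 6 of PLAT, where 27.7% of all genes rose and 28.0% fell. The counts in SK-N-AS were 3 and 1 of 20 beside PLAU, 1 and 4 of 19 beside PLAUR, and 0 and 1 of 8 beside PLAT, where 15.2% of all genes rose and 15.5% fell. Beside SERPINB2 lie the serpin genes SERPINB7 and SERPINB8, which fell with siRNA (-0.54 ± 0.059 and -0.79 ± 0.0934, adjusted p = 7.71e-07 and 2.41e-06). They rose with CRISPRi in SK-N-SH (0.79 ± 0.0383 and 0.24 ± 0.0965, adjusted p = 5.26e-20 and 0.0348). In SK-N-AS only SERPINB8 of this pair was tested, and it rose by 0.68 ± 0.0424 (adjusted p = 2.56e-15). SERPINB2 itself was called only with CRISPRi, and its difference between the SK-N-SH experiments is the one that some alternatives lost. Of the neighbours of SERPINB2, 0 rose and 2 fell of 3 with siRNA. With CRISPRi the counts were 2 and 0 of 2 in SK-N-SH and 1 and 0 of 2 in SK-N-AS. Beside SERPINE2, 0 rose and 1 fell of 3 with siRNA, and 1 rose and 0 fell of 3 in each CRISPRi experiment. Beside THBD in SK-N-AS 2 genes were tested, and both rose. CD93, a gene of endothelial and myeloid cells, rose by 1.06 ± 0.246 on the log2 scale (adjusted p = 0.000922), and LINC03125 by 2.55 ± 0.428 (adjusted p = 1.22e-05).

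Genes around the members, 46 in all by role, were counted in the same way. With siRNA 1 of 33 tested genes rose and 10 fell, where 2.55% and 6.98% of all genes did, with a median log2 fold change of -0.09 beside 0.0085 for all genes. In SK-N-SH CRISPRi 15 of 27 rose and 5 fell, where 27.7% and 28.0% of all genes did (median 0.24 beside -0.0068). In SK-N-AS 13 of 30 rose and 4 fell, where 15.2% and 15.5% of all genes did (median 0.12 beside -0.0024). Of the 27 tested in all 3 experiments, 6 fell with siRNA and rose in both CRISPRi experiments, as PLAU and PLAUR did: ANXA2, IGF2R, SERPINI1, SERPINB8, F2RL1 and PROCR. Of all 13943 genes tested in the 3 experiments, 3.22% had that combination. With scaling by library totals, and with DESeq2, 4 of the 6 kept it and PROCR and SERPINB8 lost it. With no filter on low counts F2RL1 lost it, and with a replicate block PROCR did.

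Plasminogen itself was absent or nearly so: PLG had 1 knockdown and 4 control reads with siRNA and 0 in both CRISPRi experiments. F12, coagulation factor XII, a protease of the contact system, fell by 1.20 ± 0.129 on the log2 scale in SK-N-SH CRISPRi (adjusted p = 3.28e-10) and by 0.64 ± 0.0896 in SK-N-AS (4.82e-07), the reverse of PLAU there, and was not called with siRNA (-0.11 ± 0.0656, adjusted p = 0.339). Of the surface proteins that bind plasminogen, ANXA2, the annexin that docks plasminogen and PLAT together with S100A10, fell by 0.47 ± 0.057 on the log2 scale with siRNA (adjusted p = 3.43e-06) and rose by 0.61 ± 0.0403 in SK-N-SH CRISPRi (5.8e-16) and 0.21 ± 0.0228 in SK-N-AS (2.22e-09). S100A10, its partner subunit, rose by 0.57 ± 0.0432 and 0.48 ± 0.0316 in the 2 CRISPRi experiments (adjusted p = 4.41e-14 and 1.15e-14) and was not called with siRNA (0.15 ± 0.0628, adjusted p = 0.159). ENO1 and PLGRKT, the other 2 of that role, were called in none of the 3. Among partners and clearance receptors of uPAR, IGF2R, which binds uPAR and plasminogen, fell with siRNA (-0.35 ± 0.0488, adjusted p = 2.07e-05) and rose by 0.50 ± 0.069 and 0.16 ± 0.0253 with CRISPRi in SK-N-SH and SK-N-AS (adjusted p = 7.84e-05 and 6.78e-06). In SK-N-SH CRISPRi MRC2, an endocytic collagen receptor that associates with uPAR, rose by 0.97 ± 0.0422 (adjusted p = 5.67e-21). VLDLR, which clears activator and serpin complexes, fell there by 1.10 ± 0.0706 (adjusted p = 3.15e-16). Neither was called with siRNA or in SK-N-AS. Of 6 tested genes of this role, 0 rose and 2 fell with siRNA, 3 and 2 in SK-N-SH CRISPRi, and 2 and 0 in SK-N-AS. The shares of all genes were 2.55% and 6.98%, 27.7% and 28.0%, and 15.2% and 15.5%, in the same order.

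Among other serpins and protease inhibitors, including SERPINF1, 13 were listed. With siRNA 1 rose and 2 fell of 9 tested, in SK-N-SH CRISPRi 4 and 0 of 5, and in SK-N-AS 2 and 1 of 7. Of all genes, 2.55% rose and 6.98% fell with siRNA, 27.7% and 28.0% in SK-N-SH CRISPRi, and 15.2% and 15.5% in SK-N-AS. SERPINI1, neuroserpin, an inhibitor of tissue plasminogen activator in neurons, fell by 0.77 ± 0.115 on the log2 scale with siRNA (adjusted p = 5.15e-05) and rose by 0.58 ± 0.0938 and 0.48 ± 0.0963 with CRISPRi in SK-N-SH and SK-N-AS (adjusted p = 1.95e-06 and 0.000167). SERPINB8 rose by 0.68 ± 0.0424 in SK-N-AS (adjusted p = 2.56e-15). SERPINF1, a secreted serpin without protease inhibitor activity, rose by 0.77 ± 0.0522 in SK-N-SH CRISPRi (adjusted p = 1.5e-15) and fell by 0.51 ± 0.0364 in SK-N-AS (adjusted p = 1.08e-13).

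The thrombin branch had 15 genes listed. With siRNA 0 rose and 4 fell of 11 tested, in SK-N-SH CRISPRi 6 and 1 of 9, and in SK-N-AS 7 and 2 of 10. The shares of all genes that rose and fell were 2.55% and 6.98%, 27.7% and 28.0%, and 15.2% and 15.5%, in the same order. F2R, the main thrombin receptor, fell by 0.76 ± 0.0425 on the log2 scale with siRNA (adjusted p = 1.49e-11) and rose by 0.65 ± 0.0407 in SK-N-SH CRISPRi (adjusted p = 1.28e-16), and in SK-N-AS it fell by 0.10 (-0.10 ± 0.029, adjusted p = 0.0107). F2RL1, a related receptor opened by trypsin-like proteases, fell by 1.27 ± 0.078 with siRNA (adjusted p = 7.15e-11). PROCR, the protein C receptor, works beside thrombomodulin and fell by 0.33 ± 0.0913 with siRNA (adjusted p = 0.0213), and rose by 0.40 ± 0.144 and 0.18 ± 0.0457 with CRISPRi (adjusted p = 0.017 and 0.00219). F2RL3, another thrombin receptor, rose in SK-N-AS by 1.37 ± 0.107 (adjusted p = 1.11e-12) and TFPI2, a matrix-bound inhibitor of plasmin, by 1.00 ± 0.0457 (adjusted p = 6.76e-19). HGF, a growth factor whose precursor is cut by serine proteases, averaged 1932 CPM in SK-N-AS controls against 27.5 CPM and 9.57 CPM in the siRNA and CRISPRi controls of SK-N-SH. It fell by 0.41 ± 0.0686 on the log2 scale with siRNA (adjusted p = 0.000212) and by 0.53 ± 0.139 in SK-N-SH CRISPRi (adjusted p = 0.00171), where the groups overlapped, and was not called in SK-N-AS (0.04 ± 0.0253, adjusted p = 0.235).

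**Figure D4:**
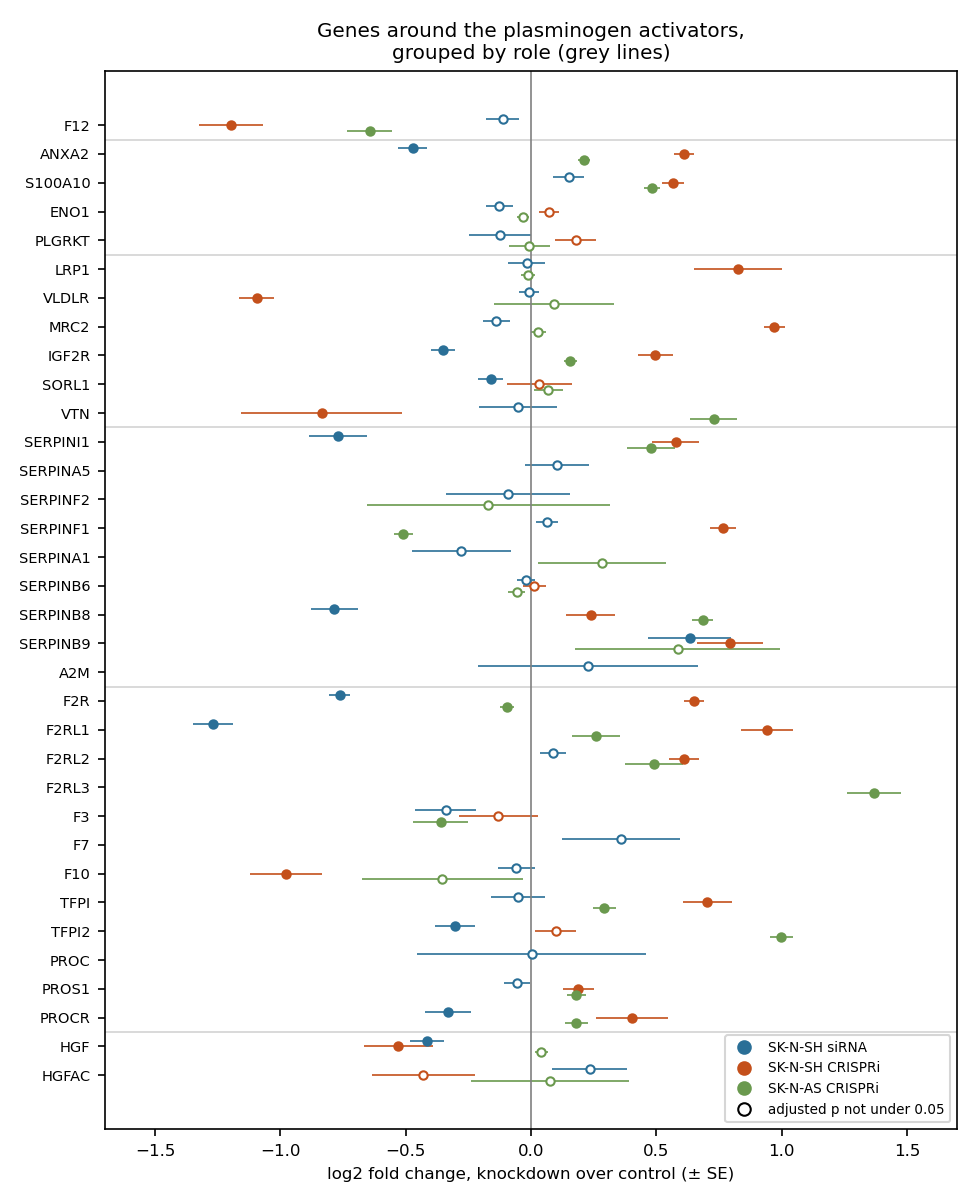
Log2 fold change ± SE of the wider list's genes tested in at least 1 experiment, ordered by role (grey lines), with colours for the experiments and open points for values that did not pass. ANXA2, IGF2R, SERPINI1, SERPINB8, F2RL1 and PROCR lie left of 0 with siRNA and right of 0 with CRISPRi.

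Line identity markers were summed and counted as well. Of all genes, 2.55% rose and 6.98% fell with siRNA, 27.7% and 28.0% in SK-N-SH CRISPRi, and 15.2% and 15.5% in SK-N-AS. In SK-N-SH CRISPRi the summed CPM of 7 adrenergic neuroblastoma markers was 1790 to 1880 in controls and 689 to 729 in knockdown libraries. Of 6 tested, 0 rose and 6 fell. The sum of 6 mesenchymal markers was 5610 to 6430 and 10500 to 11100, with 4 rising and 1 falling (TWIST1) of 6 tested. Of that sum, FN1 alone averaged 2467 CPM in controls and 5609 CPM in knockdown libraries. With siRNA the mesenchymal sum was 2480 to 2660 in controls and 1990 to 2240 in knockdown libraries, with 0 rising and 3 falling of 6 tested. The adrenergic sums overlapped there (1840 to 2010 and 1920 to 2100), with 1 rising and 0 falling of 6 tested. In SK-N-AS the mesenchymal sum was 2470 to 2520 and 2660 to 2740, with 4 rising and 2 falling (TWIST1 and FN1) of 6 tested. The adrenergic sum there was 1170 to 1220 and 1050 to 1110, with 0 rising and 4 falling of 7 tested. None of these markers was at 0 reads. The summed CPM of 6 epithelial markers was 78.7 to 86.3 in controls and 158 to 166 in knockdown libraries of SK-N-SH CRISPRi. KRT18 alone averaged 73.2 CPM in those controls and 140.3 CPM in the knockdown libraries. Of 3 tested, KRT8 and KRT18, keratins of simple epithelia, rose by 1.25 ± 0.102 and 0.94 ± 0.0448 (adjusted p = 2.65e-13 and 3.74e-20). EPCAM was not called (-0.53 ± 0.399), CDH1 had 2 control and 4 knockdown reads, and KRT5 and KRT14 had 0 reads. With siRNA this sum was 24.9 to 29.2 and 28.4 to 36.0. KRT18 rose there by 0.30 ± 0.0622 (adjusted p = 0.00191), while KRT8 (-0.19 ± 0.128) and EPCAM (0.27 ± 0.219) were not called. In SK-N-AS the sum was 111 to 117 and 113 to 121, with KRT8 rising by 0.18 ± 0.054 (adjusted p = 0.0105). KRT18 (0.02 ± 0.0329) and EPCAM (-0.06 ± 0.511) were not called in SK-N-AS. The part of all these markers in the results for the members was not tested. Of 6 blood markers, 0 rose and 1 fell of 3 tested in SK-N-AS. In SK-N-SH CRISPRi 1 rose of 1 tested, and with siRNA 1 was tested and not called. PTPRC, the blood marker that fell, averaged 542 CPM in SK-N-AS controls and 451 CPM in knockdown libraries (-0.27 ± 0.0268 on the log2 scale, adjusted p = 5.9e-10). It was not tested in the SK-N-SH experiments. CD3E, a T cell marker, had 0 reads in SK-N-AS. The part of the blood markers in the results for the members was not tested either.

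The genes whose pattern lay closest to each member were found by Euclidean distance over log2 CPM in the 24 libraries, each experiment centred on its own controls. PLAU was nearest to ITGA2, the collagen-binding integrin subunit (distance 1.28), CA12 (1.45) and LAMB3 (1.89), where the median gene lay at 5.64. ITGA2 had log2 fold changes of -1.83 with siRNA, 1.27 with CRISPRi in SK-N-SH and 0.62 in SK-N-AS. PLAUR was nearest to GEM (0.471), MT2A (0.748) and PHLDA2 (0.788), with the median gene at 2.91, and PLAT to CPM, the carboxypeptidase M gene (0.762), THBS2 (1.07) and PLXDC2 (1.2), with the median at 3.63. SERPINE2 was nearest to HIF1A (0.4), LYPD6 (0.412) and ABLIM1 (0.439; median 1.26), and SERPINB2 to GREM1 (1.09), IFI16 (1.14) and MAGEC1 (1.27; median 3.89). No member was among the 3 nearest genes of another. SERPINB2 could not be among those of another member, since candidates had to average at least 1 log2 CPM in each experiment. THBD was left out because it was not tested in SK-N-SH CRISPRi. These distances are descriptions over libraries that share controls within each experiment, and carry no p.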

How the data were processed

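Poly-A RNA of 24 libraries was sequenced, and the deposited tables hold raw counts as whole reads for each gene and library, in 1 table per experiment. Per the submitters' processing notes, bcl2fastq 2.20.0.422 and 2.20, CASAVA, FastQC 0.11.8, STAR 2.6.1d and featureCounts 1.5.1 were used with GRCh38; their division among the experiments, the annotation release and the strand setting were not found in the labels. The CRISPRi libraries were made with a stranded kit, and for the siRNA libraries the labels' protocols describe a stranded and an unstranded variant. Gene lengths come from a column the authors deposited in the siRNA table, how they were made is not given there, and they were used for all 3 experiments.

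The members were found by Ensembl identifier in each table. Each experiment was fitted alone in R 4.3.3 with edgeR 4.0.16, knockdown against its own controls: filterByExpr (minimum count 10, minimum total 15), TMM factors, robust quasi-likelihood fit, two-sided test and Benjamini-Hochberg adjustment over all genes tested, called at an adjusted p under 0.05. Standard errors come from the estimate and the F statistic. Differences between experiments were tested as an interaction in a joint model with 1 spread per gene. The scripts were tested on simulated data with known changes. Alternatives were DESeq2 1.42.0, RLE size factors, library totals alone, no filter, a filter at 1 CPM, a replicate block, each library left out in turn, and the 2 siRNA libraries named in the text left out together.

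The members and all lists were chosen with earlier results of these data known, and the wider list does not cover every gene of the system. Named beside the members are FAM167A, up to 5 called genes of the wider list per experiment with the smallest adjusted p, the 3 nearest genes of each member among those with a symbol, tested in all experiments and averaging at least 1 log2 CPM in each, and genes within 250 kb. Other genes of the wider list, the markers, CD93 and LINC03125 were named after their values were seen. One marker gene is not reported here. Positions are those of the siRNA table (GRCh38), overlaps and exons those of the tables and GENCODE, and promoter sequence that of RefSeq. Promoter stretches inside annotated exons were kept to 30 bases.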

Additional observations from a re-analysis of the deposited data

Results flagged for a closer look

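SERPINB2 in SK-N-AS knockdown library 1 stood at 15.39 CPM, farther from the other 3 knockdown libraries than Dixon's test allows. It was the only such library in 24 checks, the 6 members in the 4 arms of 4 or 5 libraries, where chance flags about 1 in 20. The response in SK-N-SH differed between siRNA and CRISPRi, by the interaction test, for PLAU (a difference of 3.30 on the log2 scale, CRISPRi minus siRNA), PLAT (2.59), PLAUR (1.49) and SERPINB2 (0.81). Between CRISPRi in SK-N-SH and in SK-N-AS it differed for PLAT (1.91, SK-N-SH minus SK-N-AS), SERPINE2 (-0.52) and SERPINB2 (-0.61).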

How the results depend on the processing

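Every count of members called, and of all genes called, stayed within 1.5 times its value under the alternatives tried. Of 482 values of the 6 members under an alternative, 465 kept direction and side of the threshold, 8 newly passed, 3 no longer passed and 6 changed sign. The changes of sign were all of values near 0: SERPINE2 with siRNA (-0.017 to 0.043 with each library left out), and the difference between CRISPRi responses for PLAUR (-0.11 with library totals, -0.029 to 0.049 with each library left out) and PLAU (-0.047 with library totals). Leaving out each library in turn gave 3 to 4 members called with siRNA, 4 to 5 in SK-N-SH CRISPRi and 5 to 6 in SK-N-AS, and 1406 to 2515, 7776 to 8449 and 5149 to 5900 of all genes. Scaling by library totals moved the median log2 fold change of all genes in SK-N-SH CRISPRi to -0.14, with 2791 genes higher and 6397 lower against 4269 and 4313, and with siRNA to 0.06, with 1315 higher and 1068 lower against 536 and 1468. With it SERPINE2 also passed in the difference between the SK-N-SH experiments (-0.26, adjusted p = 0.00269; 0.00269 to 0.712 over the alternatives). Libraries of the same number did not deviate together (correlations of -0.14 to 0.05). No sign of pairing by number was seen, but so few libraries cannot exclude it. A replicate block gave 1532, 8460 and 5894 genes called with siRNA, in SK-N-SH CRISPRi and in SK-N-AS. It newly called THBD with siRNA (-1.72, adjusted p = 0.0181). The few reads of THBD limit its values in both SK-N-SH experiments, as does the low level of SERPINB2 with siRNA.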
